A study of Mus musculus with 38 samples.

Results

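Single mouse embryonic stem cells (mESCs) held in 2i/L medium and sequenced by SMART-seq2, a plate-based method that copies whole transcripts and not just their 3′ ends, are described here one gene and one cell at a time. All 82 deposited cells of this sample were taken, with no further choice by any measured value. The series holds 339 SMART-seq2 cells and 38 samples. The study followed the exit of mESCs from pluripotency under all-trans retinoic acid (RA), and these cells are its 0 h point in the full-length assay. They were cells of the E14 line grown without feeder cells on gelatin, in DMEM/F12 with N2 and B27 supplements, 1 µM of the MEK inhibitor PD0325901, 3 µM of the GSK3 inhibitor CHIR99021 and 1000 U/ml of leukaemia inhibitory factor (LIF), with no treatment. The cells they are set beside (86 cells at 12 h, 89 at 24 h and 82 at 48 h) had 0.25 µM RA in N2B27 medium, without the inhibitors and LIF. Each of the 4 time points is 1 culture of 1 line, so that a difference between times has no replicate check, and the 82 cells are not replicates of a condition.

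In 2i/L the MEK inhibitor blocks the FGF/ERK signal that drives mESCs out of pluripotency, the GSK3 inhibitor stabilizes β-catenin and so relieves the repressor Tcf3, and LIF acts through STAT3. Together they hold cells in the naive state, which resembles the epiblast of the blastocyst before implantation. That state is known for the transcription factors Nanog, Klf4, Klf2, Esrrb, Tfcp2l1, Tbx3 and Zfp42 (Rex1) beside the core factors Pou5f1 (Oct4) and Sox2, for low DNA methylation, and for fast cell cycles with a short G1 phase. In serum several of these factors differ between neighbouring cells, while 2i/L is known for more uniform cultures.

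The table held 22811 genes in RPKM (reads per kilobase of transcript scaled to the number of mapped reads). Each cell was scaled to the same total (normalized RPKM), and a gene was counted as on in a cell where it stood over 1. Cells had between 6224 and 8671 genes on, with a median of 7265. The files do not give read counts, but the smallest steps between low values put the depth of the cells between 0.453 and 2.55 times that of the median cell, and depth ranked only weakly with the number of genes on (Spearman's rho 0.18 over 82 cells). One fault in the values touches every level below. Of 16940 values from 1 to 10, 0 had 5 digits, while the values from 10 to 100 held too many with 5 digits, 15.1 for each one with 4 digits against 10.5 from 100 to 1000. About 30.8% of the 5-digit values from 10 to 100, a band that holds 76.2% of all values over 0, are in excess and may stand 10 times too high. Whether a gene is on, and any level of 100 or more, does not depend on this. Levels between 10 and 100 are given as deposited, and a lower bound, in which every 5-digit value of that band is divided by 10, is given where it matters.

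Of all genes, 1347 (5.91%) were on in every cell, 5868 (25.7%) in at least 50% of the cells but not in every cell, 5515 (24.2%) in 5% to under 50%, 3979 (17.4%) in under 5%, and 6102 (26.8%) in no cell. A gene on in 0 of 82 cells may still be on in up to 3.66% of such cells by a limit of 3 counts, or 4.4% by the exact interval. The genes on everywhere were not all abundant. Of those 1347, 288 reached a deposited level of 100 in every cell and 107 in no cell. A class by a level of 100, which the fault in the digits cannot change, left 288 genes in every cell and 18792 in none, so the classes depend on the level that is called on.

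The markers of the labelled cell type were present in nearly every cell. Zfp42, a zinc finger protein that is the classic reporter of naive mESCs, was on in all 82 cells, with a lowest value of 82.4, a median of 585 and a highest of 1174 normalized RPKM. Tbx3, a T-box repressor downstream of LIF, was on in all 82 cells as well, but at a lowest value of 4.79, a median of 37.6 and a highest of 129. Gbx2, a homeobox target of STAT3, was on in 76 cells (92.7%, exact 95% interval 84.8 to 97.3%), with a median of 40.7 and a highest value of 252. Thus Zfp42 stood above 100 in all cells but 1, while Tbx3 and Gbx2 lay almost entirely in the band with the fault, with lower bounds of their means at 9.21 and 17. Exact intervals on shares cover counting error in this 1 culture only.

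Nanog was on in 81 cells, with a median of 274 and a highest value of 660 normalized RPKM. Klf4, on in all 82 cells, had a median of 43.7 and a highest of 184. Its relative Klf2 was on in 77 cells with a median of 30.8, and reached 100 in no cell. Esrrb, an orphan nuclear receptor, was on in all 82 cells between 11.6 and 147. Tfcp2l1, a LIF target, was on in all 82 cells too, at a median of 105. The core factors were on in every cell without exception, Pou5f1 between 109 and 451 with a median of 247, and Sox2 between 1.29 and 135 with a median of 32.5. All 10 of these markers were on together in 72 cells (87.8%, 78.7 to 94%), 9 of 10 in 8 cells, and no cell had fewer than 8.

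**Figure D1:**
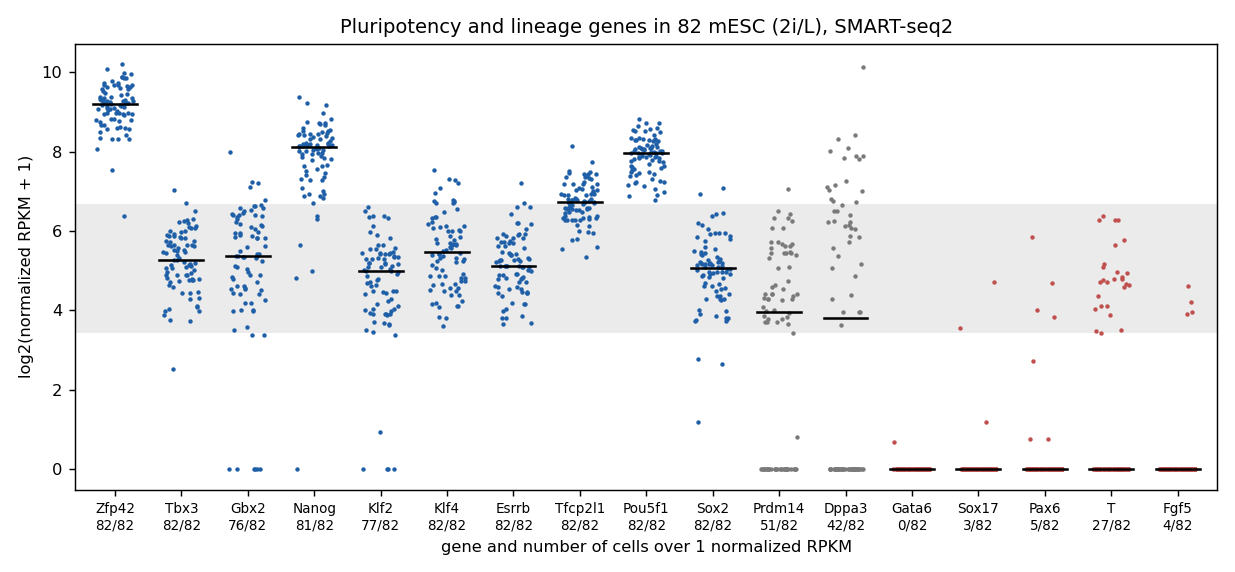
Level of 17 genes in each of the 82 cells, as log2 of normalized RPKM plus 1 on the vertical axis, 1 point per cell, with the median as a black line, the number of cells over 1 under each name, and a grey band for values from 10 to 100. Zfp42, Pou5f1 and most Nanog values lie above the band, Prdm14 and Dppa3 (grey) split into cells at 0 and cells that are on, and the lineage genes (red) lie at 0 in most cells.

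Since Gbx2 and Tbx3 differed in how many cells they reached, the other pluripotency genes were counted beside them. Gbx2 and Tbx3 were on together in 76 cells, and 0 cells lacked both. Gbx2 was on together with Nanog in 75 cells (91.5%, 83.2 to 96.5%), with Klf2 in 72 and with Dppa3 in 39 cells. In each of the 6 cells without Gbx2, Zfp42, Tbx3, Klf4, Esrrb, Tfcp2l1, Pou5f1 and Sox2 were on, as they were in every other cell.

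Over the wider list of 20 naive pluripotency genes, 6 were on in every cell and 19 in at least 50% of them, against 31.6% of all genes in at least 50% of cells. Dppa5a, a small RNA-binding protein of the naive state, was the most abundant, at a lowest value of 512 and a median of 2176 normalized RPKM. Tdgf1 (Cripto), a co-receptor of Nodal, had a median of 223 and was on in 81 cells. Tcl1, a co-activator of Akt, had a median of 112 in a range of 0 to 614. The genes Dppa2 and Dppa4, neighbours whose proteins bind each other, had medians of 106 and 82.9 and were on in 80 and 79 cells.

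Prdm14, Dppa3 and Nr5a2 were the naive genes on in the fewest cells. Their coefficients of variation were 1.04, 3.29 and 0.875 times those of genes of like level, so only Dppa3 stood out by this measure. How many of the cells without them had transcripts that were missed was not tested. Prdm14, which represses FGF signalling and DNA methyltransferases, was on in 51 cells (62.2%, 50.8 to 72.7%), with a highest value of 131. Dppa3 (Stella), a maternal factor that guards methylation in the early embryo, was on in 42 cells (51.2%, 39.9 to 62.4%). Its mean in the cells where it was on was 132 and its highest value 1120, with 16 cells at 100 or more, so its spread is not an effect of the band with the fault. Nr5a2, a nuclear receptor that can take the place of Oct4 in reprogramming, was on in 39 cells (47.6%, 36.4 to 58.9%), and in none at 100 or more.

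All 10 core pluripotency genes were on in at least 50% of cells, against 31.6% of all genes. Tdh, the threonine dehydrogenase on which mESCs depend, was the highest, between 199 and 1306 with a median of 651. Sall4 and Rif1 were on in every cell, at medians of 109 and 66.4. Mycn, the Myc gene of these cells, was on in 80 cells with a median of 65.2, whereas Myc itself was on in 41. The transcription factor Utf1 and the RNA-binding protein Lin28a were on in 67 and 69 cells.

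The lists of other cell types held genes on in most cells beside genes on in few or none. Of all genes, 31.6% were on in at least 50% of cells, and the median gene was on in 9 cells. That median was 6 for post-implantation epiblast, 3 for primitive endoderm and 13 for neuroectoderm. For mesoderm, trophectoderm and fibroblast genes it was 4, 8 and 1. Of 10 genes of the post-implantation epiblast, 2 were on in at least 50% of cells, the DNA methyltransferases Dnmt3b (74 cells) and Dnmt3a (59 cells). The defining Fgf5, Otx2 and Pou3f1 were on in 4, 1 and 3 cells, and Sfrp2, a secreted Wnt inhibitor, in 31. Of 11 genes of primitive endoderm, the 3 broadly expressed ones encode basement membrane parts, Sparc (81 cells, median 47.1), Lamc1 (81 cells) and Lama1 (49 cells). Its transcription factors were nearly silent, with Gata6 on in 0 cells, Gata4 in 5 and Sox17 in 3, and Col4a1 and Col4a2 were on in 0 cells. The summed level of that list ran from 29 to 320 normalized RPKM.

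Of 12 neuroectoderm genes, Mdk, the growth factor midkine, was on in every cell at a median of 218, and Cd24a and Prtg were on in 70 and 64 cells. Pax6 and Sox1, which define neural progenitors, were on in 5 and 1 cells, and Pax3 in none. Among 6 mesoderm genes the most common was T (Brachyury), on in 27 cells (at most 82.6), while Mixl1 was on in 8, Eomes in 6 and Hand1 and Twist1 in 0 cells. Of 10 trophectoderm genes, Tfap2c, which also serves naive mESCs, was on in 56 cells, and Cdx2 was on in 24 cells with no value of 100 or more. Fibroblast genes bear on feeder cells, which the culture is described as lacking. Of 10 such genes, Vim, which is common in cultured cells, was on in every cell and the collagens Col1a1, Col1a2 and Col3a1 in 0, 1 and 1 cells.

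The 16 genes of the 2-cell-like state, a rare state of mESC cultures marked by the Zscan4 cluster, were each on in 0 to 11 cells, Usp17la in the most. They met in 1 cell, which had 7 of the 16 on and in which Gm8300 reached 405 normalized RPKM; no other cell of the 82 had as many. Zscan4 genes are near-identical copies, so that reads of one may have been counted for another.

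The signals that 2i/L acts on were read through their target genes. Of 16 feedback and immediate early genes of ERK, 6 were on in at least 50% of cells, a share near the 31.6% of all genes. The 16 genes were unequal. Spry2 and Etv5 were on in every cell, at medians of 246 and 129, with Spry2 at 100 or more in 79 cells. Egr1 and Fosl1 were on in 0 cells, Dusp5 in 2, Dusp4 in 4 and Fos in 7. Dusp6, the phosphatase most often read as an ERK reporter, was on in 50 cells, and Ier2 in 81 at a median of 97.8. The list thus held genes on in all cells beside genes on in none under the MEK inhibitor.

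Of 13 Wnt/β-catenin targets, 7 were on in at least 50% of cells, against 31.6% of all genes. Cdx1 and Znrf3 were each on in 80 cells, Sp5 in 76, Axin2 in 67 and Notum in 65. Cdx1 was the highest, with a median of 65.2 and a highest value of 218. Lef1 and Tcf7, the transcription factors of the pathway, were on in 44 and 50 cells. Lgr5, Rnf43 and Nkd2 were on in 3, 1 and 6 cells. Of 12 LIF/STAT3 targets, 10 were on in at least 50% of cells, among them the inhibitor Socs3 (80 cells, median 37.1), Stat3 itself (80), the receptor chains Lifr (82) and Il6st (76) and the kinases Pim1 (72) and Pim3 (79). Gfap, a STAT3 target of glia, was on in 0 cells.

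Of 12 genes, 4 were on in at least 50% of cells, among them the receptor Rarg (65 cells), Stra8 (54 cells, highest 321) and the retinal reductase Dhrs3 (52 cells, highest 252). Cyp26a1, the RA-degrading enzyme, was on in 2 cells and Cyp26b1 in 0. Rarb, a direct target, was on in 27 cells, with no deposited value of 100 or more. The share of the list on in at least 50% of cells, 4 of 12, was near the 31.6% of all genes.

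**Figure D2:**
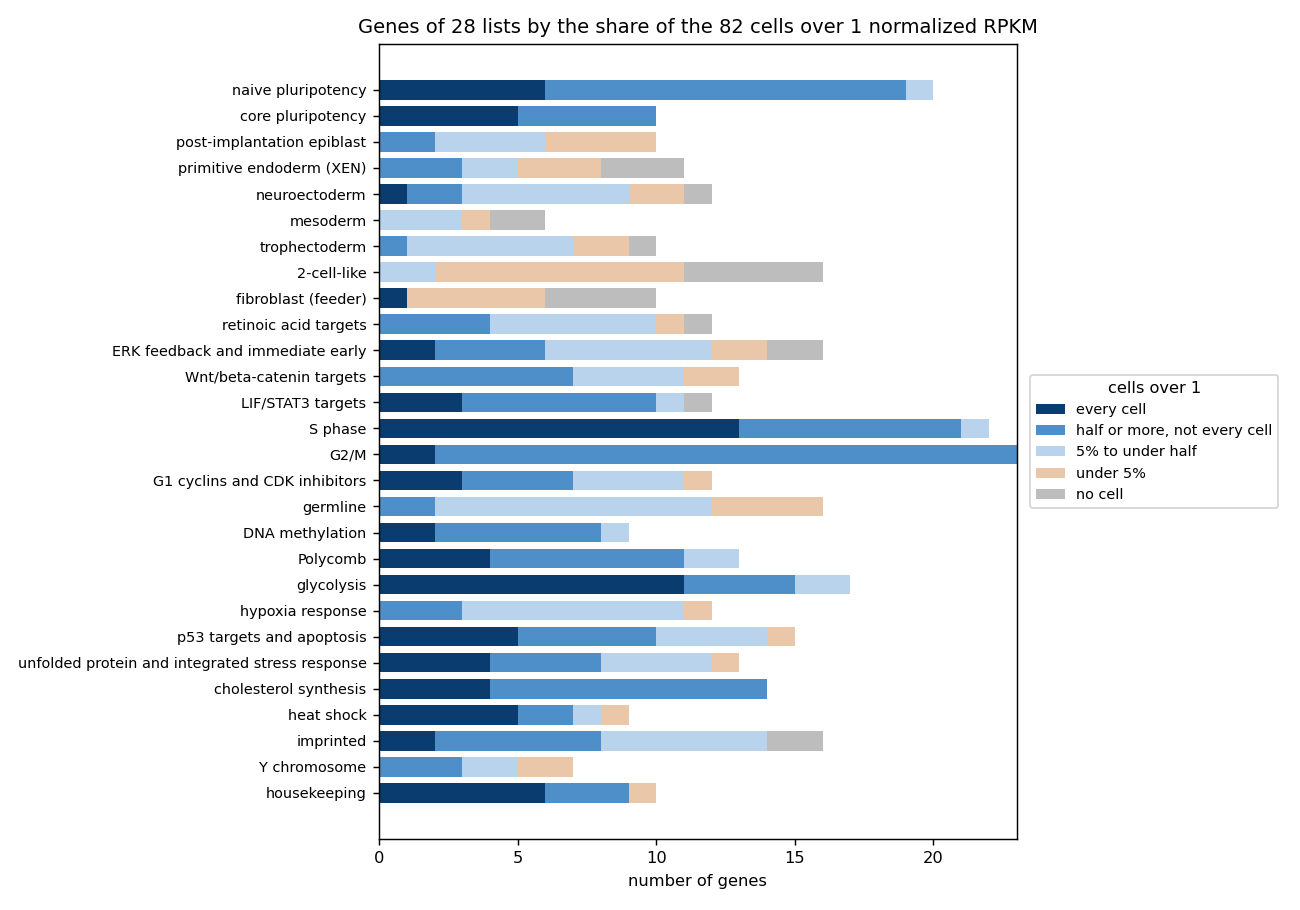
Number of genes (horizontal axis) of each of 28 gene lists that were over 1 normalized RPKM in every cell, in 50% or more, in 5% to under 50%, in under 5% and in no cell of 82. The pluripotency, S phase, G2/M, glycolysis and cholesterol lists consist almost wholly of the 2 darker blue classes, and the 2-cell-like list holds 14 of 16 genes in the 2 classes with the fewest.

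Among the genes with the highest mean of those on in every cell were Rn45s, a ribosomal RNA precursor, at 13748 ± 1685 (SD over 82 cells) normalized RPKM, Ftl1, the ferritin light chain, at 6925 ± 1471, the ribosomal protein genes Rps28, Rpl41, Rps18 and Rpl23a, the chaperone Hspa8 at 4741 ± 1489, the superoxide dismutase Sod1 at 4461 ± 717, and Npm1, a protein of the nucleolus, at 4118 ± 734. Of 81 genes with ribosomal protein names, 76 were on in every cell, against 5.91% of all genes. Glycolysis was present throughout, with 11 of 17 genes on in every cell. Pkm had a median of 941, Pgam1 of 797, Ldha of 738 and Aldoa of 583, and the glucose transporter Slc2a3 of 274. Its sister Slc2a1 was on in 73 cells at a median of 51.4, and the lactate exporter Slc16a3 in 22.

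Of the hypoxia targets, 3 of 12 were on in at least 50% of cells, against 31.6% of all genes, and Vegfa was on in 13 cells. All 14 genes of cholesterol synthesis were on in at least 50% of cells, among them Fdps (median 250), Hmgcs1 (137) and Insig1 (112) in every cell. In the heat shock list the housekeeping chaperones Hspa8, Hsp90aa1, Hspb1, Hspd1 and Hspe1 were on in all cells, and the inducible Hspa1a and Hspa1b in 2 and 5. Of the genes of p53 and apoptosis, Trp53, its targets Cdkn1a (median 136, from 25 to 559), Ccng1 (201) and Phlda3, and the pro-apoptotic Bax (394) were on in every cell, whereas Bcl2 was on in 2 cells and its relative Bcl2l1 in 73.

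Among housekeeping genes Hprt stood apart. It was on in 3 cells (3.66%), while Actb, Gapdh, Ppia, Eef1a1, Ywhaz and Rplp0 were on in all 82. Both other assays of 0 h cells gave the same low level, 0.437 and 0.435 CPM in 2 bulk libraries, which is 1 unique molecular identifier (UMI) each, and no UMI in 282 cells by SCRB-seq.

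For DNA methylation, the maintenance pair Dnmt1 and Uhrf1 was on in 81 and 82 cells, at medians of 44.2 and 196. The de novo enzymes Dnmt3b, Dnmt3a and their cofactor Dnmt3l were on in 74, 59 and 48 cells. Of the oxidizing enzymes, Tet1 was on in all 82 cells, Tet2 in 80 and Tet3 in 20. In the Polycomb list Eed, Mtf2, Jarid2 and Rnf2 were on in every cell, Mtf2 at a median of 209, with Ezh2 and Phc1 in 81 cells and Ezh1 and Ring1, relatives of Ezh2 and Rnf2, in 43 and 17. Cell cycle inhibitors of G1 were unequal too, with Cdkn1a on in every cell, Cdkn1b in 46, Cdkn2a in 8 and Cdkn2c in 3, and of the D cyclins Ccnd3 (81 cells, median 122) and Ccnd1 (81 cells, 38.3) were common while Ccnd2 was on in 5.

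Genes on in few cells but high where on were sought by rule, among genes on in 4 to 40 cells. The 10 highest were all small nucleolar RNAs of the H/ACA type, which guide pseudouridylation. Snora61 was on in 4 cells at a mean of 24093 normalized RPKM in these, Snora68 in 18 cells at 7187 and Snora65 in 23 cells at 3096. The 10 most variable genes were the same but for Snora78 in place of Snora65, with a coefficient of variation 5.60 to 13.8 times that of genes of like level. RPKM divides by a transcript length of 140 bases or less in these genes, so that few reads give a large value, and none of them was read as a difference between cells.

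The same rules were run again for genes whose longest transcript has at least 300 bases, a step chosen after these values were seen. Rhox5, a homeobox gene on the X chromosome that is silenced by DNA methylation in many tissues, then led both lists. It was on in 27 cells (32.9%), with a mean of 418 in these cells and a highest value of 1544, and 14 cells at 100 or more. Cox7b2 was on in 26 cells with a highest value of 408, and Gm364 in 24 with a highest of 280. Pramel6 and Pramel7, which belong to a family of early embryonic genes, were on in 13 and 5 cells with highest values of 551 and 377. Serpine2, a secreted protease inhibitor, was on in 18 cells, of which 1 reached 580. Meg3, an imprinted long RNA, was on in 75 cells at a median of 31.9, and reached 820 in 1 cell. In all, 57 genes had a coefficient of variation over 2 times that of genes of like level.

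Other germline genes were on in part of the cells. Tex19.1 was on in 74 and Dazl, an RNA-binding protein of germ cells, in 41, with a highest value of 582. Stk31, Sycp3 and Sycp1 were on in 38, 19 and 17 cells, and Ddx4 (Vasa), Mael and Asz1 in 8, 3 and 1. Of the imprinted genes, Impact and Snrpn were on in every cell, Mest in 65, Phlda2 in 63, Peg3 in 43 and Plagl1 in 37, while H19 and Igf2 were on in 0 cells. Xist was on in 67 cells of this male line, at most at 101, and Tsix, which is read from the opposite strand of the same locus, in 35. The method does not keep the strand, so reads of the pair cannot be told apart.

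Correlations between cells were computed over 9521 genes on in at least 20 cells, as Pearson's r of log2 values over the 82 cells, which share 1 culture, 1 assay and the range of depths given above. Of 45319960 pairs, the median r was 0.0086, with the 1st and 99th percentiles at -0.25 and 0.28. There were 295 pairs with r over 0.6 and 82 under -0.5. The 20 highest and 10 lowest pairs were described, and since they were picked for their r here, each was also computed in the cells of the later times, which the choice did not use. Of the 20 highest, 14 had an r over 0.3 at 12 h, 15 at 24 h and 17 at 48 h, with medians of 0.45, 0.40 and 0.51. All r are given without a p, since cells of 1 culture are not replicates.

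Of the 20 highest pairs, 8 joined 2 genes of mitosis. Birc5 (survivin), a subunit of the chromosomal passenger complex, had an r of 0.78 with Ccnb1 (cyclin B1, which drives entry into mitosis), 0.77 with Cenpa, the centromeric histone, 0.76 with Ccna2 (cyclin A2) and 0.72 with Cdca3. Ccnb2 (cyclin B2) and Cdca3, a trigger of mitotic entry, had an r of 0.85. Ccnb1 also moved with Tubb4b, a β-tubulin (0.72), and Racgap1, a protein of cytokinesis (0.71), and Tpx2, a spindle assembly factor, with Tubb4b (0.75). With the coding that the fault in the digits cannot change (values under 1 set to 0, from 1 to under 100 set to 10), Ccnb2 and Cdca3 had an r of 0.54 and Ccnb1 and Racgap1 of 0.44, the latter 0.29 with 5-digit values divided by 10. Among the pairs of Birc5, r was lower without the 1 cell with the fewest genes, at 0.67 with Ccnb1 (rank correlation over all cells 0.60), 0.63 with Cenpa, 0.58 with Ccna2 and 0.64 with Cdca3. The other mitotic pairs kept an r of 0.66 or more without it, with 0.82 for Ccnb2 and Cdca3 and 0.77 for Ccnb1 and Tubb4b. Over the 8 pairs the rank correlation at 0 h ran from 0.41 (Birc5 and Cdca3) to 0.65 (Ccnb1 and Tubb4b), with 0.50 for Ccnb2 and Cdca3. At 12 h, 24 h and 48 h Birc5 and Ccnb1 had an r of 0.38, 0.33 and 0.52. The r of the 8 pairs ran from 0.17 to 0.67 at 12 h, 0.29 to 0.55 at 24 h and 0.30 to 0.52 at 48 h. In SCRB-seq cells of the same time, at mean levels of 1.38 UMIs or less per gene, the pair had an r of 0.13 over 282 cells, Birc5 and Cenpa 0.04, and Ccnb2 and Cdca3 0.0017.

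The levels behind these pairs spanned a wide range. Ccnb1 ran from 0 to 1291 normalized RPKM with a median of 350, Birc5 from 0 to 687 with a median of 377, and Cenpa from 0 to 778 with a median of 234. Each was on in 80 or 81 cells, so that hardly any cell lacked them, and the cells differed in amount. Over the 23 genes of the G2/M list the median r between pairs was 0.35, and 0.34 with a coding that the fault in the digits cannot change. The 22 S phase genes, among them the replication licensing factors Mcm2 to Mcm7 and the clamp Pcna, had a median r of 0.22, with Mcm6 and Uhrf1 the highest pair at 0.67. These medians at 12 h, 24 h and 48 h were 0.28, 0.35 and 0.38 for G2/M and 0.22, 0.18 and 0.30 for S phase.

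The summed level of the G2/M list ran from 799 to 9829 normalized RPKM between cells, a 12.3-fold range, and that of the S phase list from 1394 to 5853, a 4.20-fold range, against 1.60-fold for the housekeeping list. Cells with more of one tended to have less of the other, with a rank correlation of -0.42 over 82 cells and an r of -0.27 between log2 sums. The G2/M sum also moved with the number of genes on in a cell (r = 0.43), which the S phase sum did not (-0.01). The part of cell size or depth in this was not tested.

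**Figure D3:**
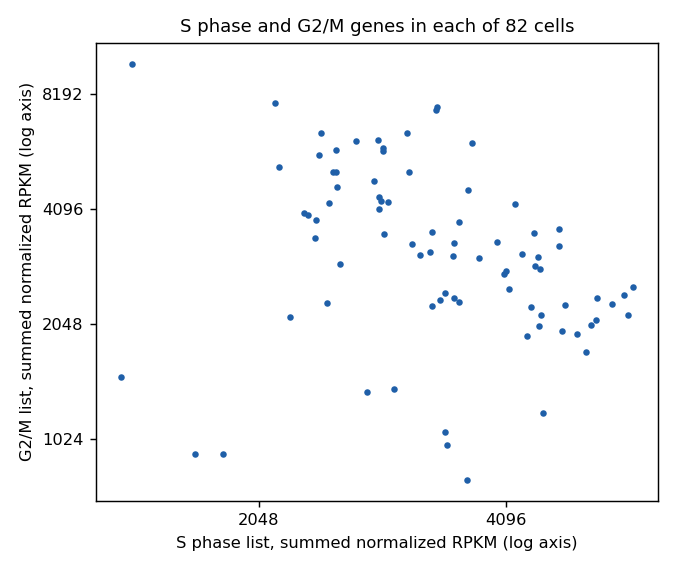
Summed normalized RPKM of the 22 S phase genes (horizontal, log axis) and of the 23 G2/M genes (vertical, log axis), 1 point per cell. Cells with a high S phase sum mostly have a low G2/M sum, and 1 cell with a low S phase sum has the highest G2/M sum, at 9829.

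The promoters of the genes in the mitotic pairs are shown because many promoters of G2/M genes are known to carry CCAAT boxes, bound by NF-Y, ahead of the transcription start. The 200 bases before the start, from RefSeq on GRCm38.p6, were searched for CCAAT on both strands, and matches are in capitals (ATTGG is CCAAT on the other strand). No other motif was searched. Of 9 genes looked up 7 had an entry (Ccna2 and Tpx2 had none), 6 of the 7 held at least 1 match, and 5 held at least 2, as do 29.3% and 7.98% of the 32851 promoter windows of the same length. Tubb4b held 4, Ccnb2 held 3, Ccnb1, Cdca3 and Cenpa held 2, Racgap1 held 1 and Birc5 held 0. The pairs were chosen by r and are cell cycle genes, and the matches are a description of these windows. The windows are chr13:100786487-100786686 on the minus strand for Ccnb1, chr9:70421555-70421754 minus for Ccnb2, chr6:124829976-124830175 plus for Cdca3, chr2:25224703-25224902 minus for Tubb4b and chr11:117849037-117849236 plus for Birc5.
Ccnb1: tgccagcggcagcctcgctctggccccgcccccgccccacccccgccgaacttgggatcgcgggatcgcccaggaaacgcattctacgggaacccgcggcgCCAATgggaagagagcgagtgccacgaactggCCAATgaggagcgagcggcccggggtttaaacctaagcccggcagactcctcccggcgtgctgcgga
Ccnb2: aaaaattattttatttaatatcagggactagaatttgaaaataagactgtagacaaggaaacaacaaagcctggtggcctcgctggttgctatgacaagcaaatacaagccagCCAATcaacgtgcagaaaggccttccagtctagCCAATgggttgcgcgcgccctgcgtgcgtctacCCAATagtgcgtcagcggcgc
Cdca3: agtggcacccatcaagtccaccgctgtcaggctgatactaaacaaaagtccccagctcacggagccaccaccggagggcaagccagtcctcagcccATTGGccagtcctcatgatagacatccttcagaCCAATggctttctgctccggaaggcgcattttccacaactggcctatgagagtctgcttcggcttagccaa
Tubb4b: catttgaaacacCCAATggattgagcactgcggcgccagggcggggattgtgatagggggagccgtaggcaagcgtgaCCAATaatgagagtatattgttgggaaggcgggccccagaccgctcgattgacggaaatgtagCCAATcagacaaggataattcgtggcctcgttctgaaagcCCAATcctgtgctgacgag
Birc5: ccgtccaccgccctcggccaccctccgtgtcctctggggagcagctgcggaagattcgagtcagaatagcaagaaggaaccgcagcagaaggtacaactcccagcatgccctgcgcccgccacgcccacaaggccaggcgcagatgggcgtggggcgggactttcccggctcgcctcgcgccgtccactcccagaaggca

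Mt1 and Mt2, the metallothioneins that bind zinc and copper, formed the strongest pair of neighbours with separable reads. Mt1 ran from 128 to 4800 normalized RPKM with a median of 1309, and Mt2 from 111 to 2030 with a median of 710, so both were on in every cell and above the band with the fault. Their r was 0.81, and 0.88, 0.57 and 0.60 at 12 h, 24 h and 48 h. In the 3′-end SCRB-seq cells of the same time, at a median of 3938.5 UMIs, the pair had an r of 0.26 over 282 cells. The cells with the least Mt1 were also those with little Mt2, as the plot of gene pairs shows.

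Several pairs need a warning before they are read as shared control. Snrpn and Snurf (r = 0.84) are 2 coding parts of 1 transcript, and all 192 sequence words of 25 bases of the shorter one are found in the other. Gm1821 and Ubb (0.77) share 601 such words, or 88.3%. 4930470H14Rik and Gm17644 (0.79) share 15. Gprc5c, an orphan receptor on chromosome 11, had an r of 0.86 with Pax8 on chromosome 2 and 0.86 with Smco1 on chromosome 16, although it shares 0 and 8 words with them, and Pax8 and Smco1 had an r of 0.72, which was 0.32 with the coding that the digits cannot change, by which Gprc5c and Smco1 had 0.56 and Snrpn and Snurf 0.41. These 3 stood at medians of 1088, 48.4 and 85.9 normalized RPKM, and their 3 values of r were between 0.74 and 0.95 at every later time.

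Other high pairs were lower at most later times. Exosc1, a subunit of the RNA exosome, and Hmmr, a spindle protein, had an r of 0.72 at 0 h and of -0.01, -0.16 and -0.12 at the later times. Atp6v1e1 and Ptcd3 on chromosome 6 had 0.71 at 0 h and 0.27, -0.03 and 0.06 later. Cenpm and Ubxn1 had 0.71 and then 0.17, -0.18 and 0.51, so that it recurred at 48 h alone. The rank correlations of these 3 pairs at 0 h were 0.38, 0.37 and 0.27, far below their r.

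The lowest pair was Rps27 and its near copy Rps27rt, at -0.76, and -0.76, -0.81 and -0.75 at the later times. They share 321 words of 25 bases (93.3% of the shorter transcript). Rps27 ran from 2.49 to 7123 with a median of 112 and Rps27rt from 4.90 to 6691 with a median of 3428, and Rps27 was the higher of the pair in 29 cells. Their sum varied little, with a coefficient of variation of 0.206 against 1.21 and 0.692 for each alone. The copies Amd1 and Amd2 (2959 words, 92.6%) had an r of -0.63 and were negative at each later time. Reads of such copies may have been counted for either gene, so the level of each alone is uncertain.

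Of the other low pairs, Ndufa4, a subunit of the respiratory chain, had -0.61 with Acad9, which helps to assemble complex I, and -0.60 with the ribosomal protein gene Rpl39l. Set and Tgm1 had -0.57, Rpl9 and Tada3 -0.56 and Myl6 and Nqo1 -0.55, and at the later times these 3 lay between -0.11 and 0.26. Of the 10 lowest pairs 7, 5 and 6 were below 0 at 12 h, 24 h and 48 h.

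**Figure D4:**
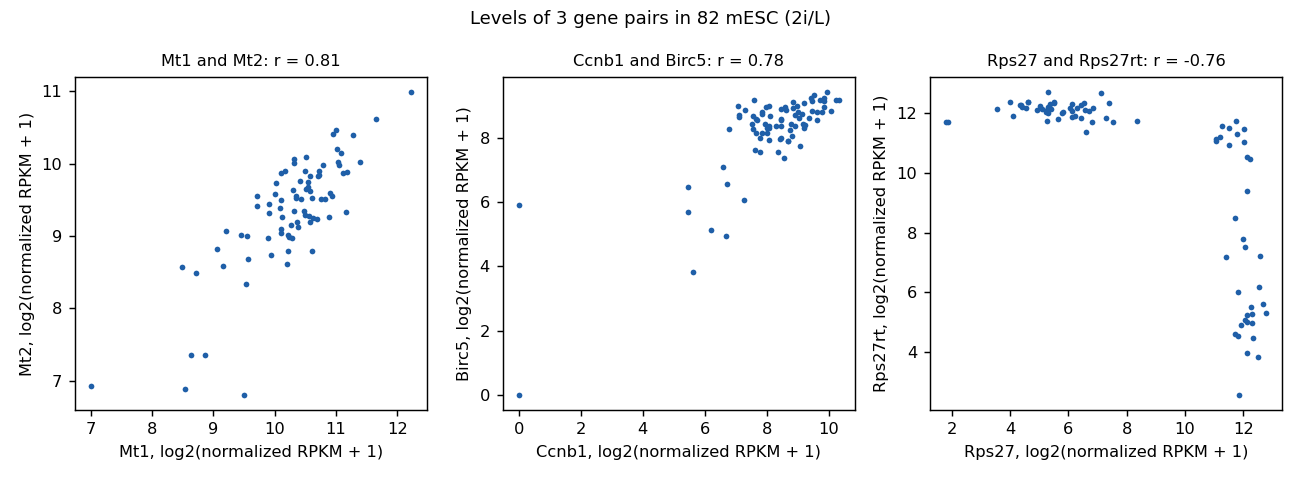
Levels of 3 gene pairs in the 82 cells, as log2 of normalized RPKM plus 1 on both axes, 1 point per cell. Mt1 and Mt2 rise together over the whole range, Ccnb1 and Birc5 form a dense cloud with few cells near 0, and Rps27 and Rps27rt lie along an L in which cells high in one are mostly low in the other.

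The pluripotency markers hardly moved together. Over the 190 pairs of the naive list the median r was 0.02 (0.01 with the coding that the digits cannot change), against 0.0086 over all pairs. The highest was Nanog and Dppa5a at 0.48. Zfp42 had an r of 0.38 with Nanog, 0.32 with Pou5f1, 0.24 with Tbx3 and 0.00 with Gbx2. By rank correlation these were 0.26, 0.18, 0.23 and -0.18, and Zfp42 with Tbx3 had 0.08 by that coding. Gbx2 and Tbx3 had an r of -0.07. Nanog had 0.34 with Pou5f1 and 0.35 with Tfcp2l1 (rank correlations 0.19 and 0.28), and Pou5f1 and Sox2 had 0.00. Nearly all of these factors were on in nearly all cells, with little correlation between their amounts. Against genes of like level, the coefficient of variation of the 10 markers named above ran from 0.698 times (Pou5f1) to 1.19 times (Gbx2). Several of them lay mostly in the band with the fault. The part of measurement noise in the low r was not tested.

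The genes most like each marker were named by rule and not tested. For Zfp42 they were Ralb (0.55), Tet1 (0.52), Coprs (0.49), Bud31 (0.46) and Fam60a (0.46), and the least like was 1810014B01Rik (-0.42). With the coding that the digits cannot change, the r of Tet1 was 0 and those of the other 4 were 0.26 to 0.45. By rank correlation Ralb, Tet1, Coprs, Bud31 and Fam60a stood at 0.29, 0.35, 0.22, 0.25 and 0.27. For Tbx3 they were Tdgf1 (0.44), Hmg20b (0.38), Epb4.1l1 (0.38), Mybl2 (0.37) and Jam2 (0.37), and at the other end Ghitm (-0.42). With that coding all of these were lower in size, at 0.13, 0.04, 0.10, 0.21, 0.18 and -0.17. For Gbx2 they were Txnl4b (0.51), Pglyrp1 (0.51), Ino80 (0.48), Wdr83os (0.47) and Dhps (0.47), and at the other end Fahd1 (-0.40), with 0.21 to 0.41 and -0.28 by that coding. For Nanog they were Ier2 (0.60), Mybl2 (0.56), Cyb5r1 (0.54), Prrc1 (0.51) and Rest (0.50), and at the other end Terf1 (-0.38), a telomere protein. By rank correlation these 5 Nanog partners stood at 0.25, 0.26, 0.17, 0.12 and 0.08, far below their r, and by that coding at 0.20 to 0.41.

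Of the metabolic and stress lists, cholesterol synthesis (median r 0.16, highest Idi1 and Fdft1 at 0.47) and glycolysis (0.15, highest Pgam1 and Eno1 at 0.63) held together more than the naive list. For cholesterol synthesis the median was 0.11, 0.23 and 0.44 at 12 h, 24 h and 48 h. The chaperones of the endoplasmic reticulum Hspa5 and Hsp90b1 had an r of 0.65 inside a stress list with a median of 0.06, and the p53 targets Ccng1 and Phlda3 had 0.46 inside a list with a median of 0.10. The housekeeping list had a median of -0.05.

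When genes were grouped by chromosome, chromosome 6 split the cells. For each cell the median level of the genes of each chromosome, each gene against its own mean of log2 values over cells, was set against the median autosome of the same cell, a step chosen after the data were seen (6875 genes on in at least 50% of cells, 320 of them on chromosome 6). In 19 cells (23.2%, 14.6 to 33.8%) chromosome 6 stood at 0.27 to 0.58 on this log2 scale, with a median of 0.39. In the other 63 it stood at -0.45 to 0.00, with a median of -0.17, and no cell lay in between. Without that step the same 19 cells stood at 0.58 to 0.85 and all others at 0.41 or less. The gap of 0.27 was the widest between neighbouring cells, with at least 5 on each side, on any autosome or the X chromosome, where all others were 0.056 or less.

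**Figure D5:**
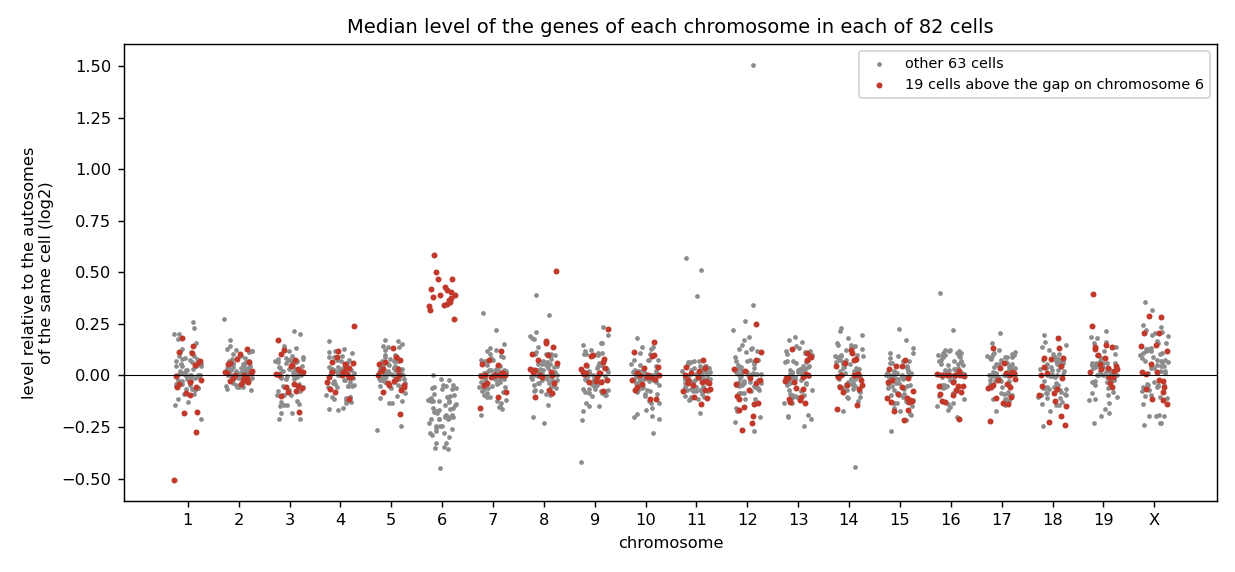
Median level of the genes of each chromosome (horizontal axis) relative to the autosomes of the same cell, in log2 (vertical axis), 1 point per cell. The 19 cells above the gap on chromosome 6 (red) lie at 0.27 or more there and among the other 63 cells (grey) on nearly every other chromosome.

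Because the gap was found in these same genes, the cells were chosen again with every other gene of the chromosome (160 genes), and the remaining 160 were read. The first set chose 22 cells, including all 19. On the second set these 22 ran from -0.37 to 0.52 and the other cells from -0.39 to 0.054, so that the groups overlapped and there was no clean gap. Over the second set the median ratio of the means in these to the other cells was 1.29, and 124 genes (77.5%) were higher. Over 6347 genes of the other autosomes it was 0.989 with 47.8% higher. At levels that the fault cannot reach, 100 or more in over 95% of cells, 10 of 11 genes of the second set were higher, with a median ratio of 1.39 and a range of 0.929 to 1.63, against 0.966 over 400 genes elsewhere. As a description of the first split, whose cells were chosen by these same genes, in 8 windows of 40 genes each, from 4076899 to 148896237 on GRCm38, the median level of the 19 cells was 0.43 to 0.73 above that of the 63.

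The cells above and below the gap had similar numbers of genes on, a median of 7450 (6687 to 8321) against 7238 (6224 to 8671), and median depths of 0.864 and 1.02 times that of the median cell. The values of single genes of chromosome 6 are a description too, since each of those named was among the 320 that set the gap. Slc2a3 had a mean of 471 normalized RPKM in the 19 cells and 240 in the 63, a ratio of 1.96. Tpi1 stood at 510 against 301, Asns at 997 against 660, Mcm2 at 308 against 197, Hk2 at 65.3 against 41.1 and Gapdh at 176 against 123. The 4 glycolysis genes among these (Slc2a3, Tpi1, Hk2 and Gapdh, of 17) all had the higher mean in the 19 cells, with overlapping ranges. Nanog, also on chromosome 6, stood at 309 against 254, a ratio of 1.21, with ranges that overlap from 27.2 to 580. Elsewhere in the genome Pou5f1 had a ratio of 1.02, Sox2 of 0.961, Zfp42 of 1.28 and Klf2 of 0.656. DNA copy number was not measured here.

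With the same limit, 16 of 86 cells (18.6%) lay above it at 12 h, 17 of 89 at 24 h and 13 of 82 (15.9%) at 48 h, with exact intervals that overlap that of 0 h throughout. At 12 h and 48 h chromosome levels were less even from cell to cell, with a median SD of the other chromosomes of 0.207 and 0.257 against 0.0953 at 0 h. At 24 h it was 0.128. The SD of chromosome 6 was 0.259 at 0 h, then 0.23, 0.202 and 0.326, so at 12 h and 48 h it was nearer to that of the others. Whether chromosome 6 split the later cells was not tested.

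Genes of the Y chromosome were below the limit in part of the cells. Ddx3y, an RNA helicase, was on in 61 cells, Eif2s3y, a translation factor subunit, in 68 and Uty, a relative of a histone demethylase, in 51. All 3 were on in 48 cells, 2 in 16, 1 in 4 and none in 14 cells (17.1%, 9.66 to 27%). In those 14 cells only 3 values over 0 were found among 7 Y genes, the highest 0.678. The median in the cells where the gene was on was 82.7 for Eif2s3y, 36 for Ddx3y and 21.6 for Uty, all in the band with the fault. Whether their transcripts were absent from the 14 cells or missed was not tested. The 14 cells had 6496 to 8268 genes on, with a median of 7100.5, and a median depth of 0.835 times that of the median cell, and 1 of them was above the gap on chromosome 6. The share without the 3 genes was 31.4% at 12 h, 24.7% at 24 h and 28% at 48 h. Ddx3y and Eif2s3y had an r of 0.72 at 0 h and 0.83, 0.91 and 0.74 later. The rank correlation of this pair at 0 h was only 0.37, and r was 0.36 with the values of the lower bound. With the coding that the digits cannot change, r was 0.55 at 0 h and 0.78, 0.80 and 0.62 later. Whether the 14 cells lacked the chromosome was not tested.

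Set beside the later times, a gene was counted as higher or lower where the means over cells differed by at least 2-fold and the higher one was over 1 normalized RPKM. The 3 comparisons share the 0 h cells and have 1 culture on each side, so there is no test. Of all genes 6.88% were higher at 0 h than at 12 h and 17.1% lower. Against 24 h these shares were 7.97% and 18.8%, and against 48 h 10.3% and 25%. Of the 20 naive genes 4 were higher at 0 h than at 12 h and 3 lower, 6 higher than at 24 h and 1 lower, and 15 higher than at 48 h and 0 lower. Zfp42 had means of 600 at 0 h, then 592, 545 and 56.1 at the 3 later times. Nanog had 267, 152, 142 and 34.8, and Esrrb 40, 39.7, 25.5 and 2.39. Thus 7 of the 20 naive genes had differed by this much at 12 h and at 24 h, in one direction or the other.

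Those that were already lower at 12 h were Tfcp2l1 (111 at 0 h and 42.3 at 12 h), Prdm14 (22.5 and 10.9), Dppa3 (67.6 and 7.05) and Gbx2 (51 and 24.2). Gbx2 then stood at 67.3 at 48 h. Against the direction of the list, Dppa2 (119 and 310), Dppa4 (86.8 and 211) and Nr0b1 (112 and 270) were higher at 12 h than in 2i/L. Among core genes Tdh was lower at every later time (642 at 0 h, then 230, 78.6 and 8.97) and Utf1 was higher at 12 h and 24 h (59.8, then 330 and 286).

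Of 13 Wnt targets 7 were higher at 0 h than at 12 h and 0 lower, 5 higher than at 24 h and 2 lower, and 6 higher than at 48 h and 2 lower. Sp5 had a mean of 37.2 at 0 h and was on in 76 of 82 cells, against 0.862 and 2 of 86 cells at 12 h. T was on in 27 cells at 0 h and in 1, 1 and 0 cells later, and Axin2 in 67 cells against 17 of 86 at 12 h. Of 16 ERK genes, 0 were higher at 0 h than at 12 h and 6 lower, among them Dusp6 (19 against 66.2) and Egr1, on in 0 cells at 0 h and in 54 of 86 at 12 h. Against 24 h these counts were 0 and 7, and against 48 h 4 and 4. Of the 12 LIF targets 2 were higher at 0 h than at 12 h and 0 lower, 1 higher than at 24 h and 1 lower, and 8 higher than at 48 h and 1 lower, with Socs3 at 44.3 against 12.7.

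RA targets were lower at 0 h in 5 of 12 cases against 12 h, 9 against 24 h and 10 against 48 h, and higher in 1, 0 and 1, with the former led by Cyp26a1 (0.329 at 0 h, 38.9 at 12 h and 320 at 24 h) and Stra8 (44.7, 271 and 605). Of the 11 primitive endoderm genes 5, 4 and 8 were lower at 0 h than at 12 h, 24 h and 48 h and 3, 0 and 0 higher, and of the 12 neuroectoderm genes 4, 7 and 10 were lower and 2, 1 and 0 higher. Of the 16 genes of the 2-cell-like state, 1 was lower at 0 h than at 12 h and 4 higher, whereas 13 were lower than at 24 h and all 16 lower than at 48 h. Zscan4d was on in 2 cells at 0 h and in 29 of 82 at 48 h. Of the S phase and G2/M genes 0 were counted in either direction at any time, so the cell cycle lists did not share in these differences. In the imprinted list 1, 4 and 10 of 16 were lower at 0 h than at the 3 later times and 2, 1 and 1 higher. Mest stood at 36.3 at 0 h against 652 at 48 h, and H19 and Igf2 were lower at 0 h than at 48 h as well.

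Bulk and SCRB-seq data of 0 h cells were read as a check on the classes. In whole cultures fewer cells with a transcript and less of it per cell cannot be told apart. Over 22341 genes in all 3 assays, the mean in these 82 cells ranked with the bulk CPM (mean of 2 libraries of 2285987 and 2297379 UMIs) at a Spearman's rho of 0.90, and with the SCRB-seq level at 0.85, across genes, which are not independent. The share of genes with at least 1 bulk UMI was 10.8% for genes on in no cell, 39% for those on in under 5%, 88.3% in 5% to under 50%, 99.8% in 50% or more and 100% in every cell. Genes on in few cells were thus often at or under the reach of the bulk libraries.

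Assays that read only 3′ ends gave other levels for some markers. Gbx2, on in 76 of 82 cells here, had 7.87 and 13.5 CPM in bulk and a UMI in 4 of 282 SCRB-seq cells. Klf2 went the other way in bulk alone. Its mean here was 32 normalized RPKM (lower bound 6.03), below Tfcp2l1 at 111 (82.3). In bulk Klf2 had 224 and 444 CPM against 137 and 239 for Tfcp2l1. By SCRB-seq the order was as here, with a UMI in 190 of 282 cells for Klf2 and in 247 for Tfcp2l1. Zfp42 had a UMI in 197 of 282 cells and Prdm14 in 21, so that at the depth of that assay most cells without a UMI cannot be called off. Rhox5, on in 27 of 82 cells, had 395 and 314 CPM in bulk and a UMI in 38 of 282 cells, and Dppa3 had 43.3 and 34.8 CPM and a UMI in 52 of 282. Other genes on in part of the SMART-seq2 cells were not found there. Rarb, on in 27 cells, had 0 CPM in both bulk libraries and a UMI in 0 of 282 cells, and Dazl, on in 41 cells, had 176 and 12.6 CPM in bulk and a UMI in 0 of 282 cells.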

How the data were processed

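SMART-seq2 libraries were made from single cells sorted into wells. The paper used only cells with a minimum number of reads. Its count of cells at 48 h, 82, is that of the deposited 48 h cells. Whether the deposited 0 h cells had passed the same step is not known here. For these cells the authors deposited RPKM values of 22815 genes and entries, made with TopHat and Cuffnorm on mm10. For SCRB-seq and bulk samples of 0 h cells the authors deposited UMI counts per gene (BWA 0.7.4). Here 2467 RPKM values with a decimal comma (at most 0.997) were read as 0, and 4 entries with repeated names were left out. The values of each cell were multiplied so that they sum to 773326, the median sum at 0 h. The limit for a gene that is on was 5 in the design and was set to 1 after the loss of decimals from 1 to 10 had been seen. Read depth is known only as a ratio between cells (0.453 to 2.55), found from the steps between low values. The SCRB-seq wells with over 2000 UMIs were kept, 282 of 384.

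Correlations are Pearson's r of log2(normalized RPKM + 1). Genes were assigned to chromosomes by symbol (GENCODE, GRCm38, the assembly of mm10). Named genes were the members of 28 lists (349 genes), the 10 genes with the highest mean among those on in every cell, the 10 with the highest mean where on among those on in 4 to 40 cells, the 10 whose coefficient of variation most exceeded that of 100 genes of like mean, the 20 highest and 10 lowest pairs, and the 5 highest and 3 lowest partners of 4 markers. A few genes that these rules name are not reported here. The members and lists were chosen with earlier results of these data known. No test was run, since the cells are 1 culture per time. Doublets were not assessed, and alternatives are given in the closing section. Shares have exact Clopper-Pearson 95% intervals. Scripts ran in Python 3.11.15 with numpy 2.4.6, pandas 2.3.3 and scipy 1.17.1 and were tested on simulated cells.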

Additional observations from a re-analysis of the deposited data

How the results depend on the processing

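Of 164 values recomputed under other settings, 133 stayed within the tolerance (1.5 times for a count, 0.1 for a correlation) and 31 moved. A change of direction was not scored apart. The 133 include values that a setting could not change, such as the r of a named pair under another minimum of cells per gene. The limit of 5 in place of 1 left 1296 genes on in every cell. With a limit of 100, chosen after seeing the data, the classes from every cell to no cell held 288, 801, 1383, 1547 and 18792 genes, and the list genes on in at least 50% of cells fell from 204 to 73 in all, from 19 to 7 in the naive list, from 3 to 0 in the primitive endoderm list and from 3 to 1 in the neuroectoderm list. The count of pairs over 0.6 depended most on the measure, from 295 to 102 with Spearman's rho, 2508 with a pseudocount of 0.1, 1234 with the coding that the digits cannot change and 160 with 5-digit values divided by 10, the last 2 added after seeing the data. Birc5 and Ccnb1 had 0.60 with Spearman's rho, 0.65 on the linear scale, 0.68 without the 8 cells with the fewest genes and 0.67 without the 1 with the fewest (added after seeing the data), and Rps27 and Rps27rt had -0.90 on the linear scale. Genes higher at 0 h numbered 684 (12 h) and 810 (24 h) with a pseudocount of 1 in place of 1050 and 1222, 2113 (12 h), 2289 (24 h) and 2565 (48 h, from 1632) with no minimum, and 675 (12 h) with values divided by 10. Genes lower at 0 h numbered 4781 (12 h, from 2606) and 5265 (24 h, from 2876) with no minimum. The cells above the gap on chromosome 6 numbered 17 to 19 and those without Y transcripts 11 to 14 under all settings run. The cause of these shifts was not tested. The main limits are 1 culture per time, the lost decimals from 1 to 10, and a depth known only in ratio. No paired analysis was possible because each SMART-seq2 time point has 1 sample and no result comes from a test.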

Other observations

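Apart from chromosome 6, 5 values in single cells lay more than 0.5 from the median autosome on the log2 scale. Chromosome 12 stood at 1.51 in the cell with the fewest genes on (6224), chromosome 11 at 0.57 and 0.51, chromosome 8 at 0.51 and chromosome 1 at -0.51, the last 2 in cells above the gap on chromosome 6. Genes on chromosome 6 had a median r of 0.035 with each other over the 82 cells, and those of the other chromosomes 0.0077 to 0.014.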
